A study of Arabidopsis thaliana with 12 samples.

Results

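The Arabidopsis thaliana genes described here were grouped as linked to light, to the morning or to a DNA repair motif. They are AT4G25290 (annotated as a DNA photolyase), AT2G03390 (uvrB/uvrC motif), CCL (locus AT3G26740, a clock-regulated transcript), chr31 (locus AT1G05490, a chromatin remodeller) and AT5G48130 (NPH3 family). The annotation of chr31 as a chromatin remodeller names none of these links. The 5 genes are among the 692 array probes that name 1 gene, out of 3439 probes in all. They were chosen by name from genes whose intensity differed between light and dark in these same columns. That difference is therefore given as a description, with no test of the members.

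Total RNA of wild-type plants of the Landsberg ecotype was hybridised to an expression array. Both groups carried the same herbicide treatment, 50 µM paraquat, which takes electrons from photosystem I and hands them to oxygen. In the dark group (6 columns of values, numbered 1 to 6) plants stayed in darkness for 12 h. In the light group (6 columns, with the same numbers) plants had 30 min of light following their 12 h of darkness. No untreated group is part of the comparison, so effects of paraquat, of light and of the later sampling cannot be told apart. The labels name no tissue and do not say whether columns came from separate plants, so n = 6 counts columns, and the spread between them may be technical. In whole plants, a lower level per cell and fewer cells that make a transcript cannot be told apart either.

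Photolyases use the energy of blue light to split the pyrimidine dimers that ultraviolet light leaves in DNA, and the cryptochrome photoreceptors belong to the same protein family. The uvrB/uvrC motif takes its name from bacterial excision repair proteins, but it also occurs in chloroplast proteins with other tasks, such as the Clp chaperones and the EXECUTER proteins, so the motif alone does not place a gene in DNA repair. The plant clock sets many transcripts to rise around dawn, and NPH3, the founder of the NPH3 family, binds the blue light receptor phototropin in the bending of seedlings toward light.

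AT4G25290, CCL, chr31 and AT2G03390 had higher mean intensities in light, and AT5G48130 had a lower one. The sizes ran from 1.76-fold higher for AT4G25290 to 1.50-fold lower for AT5G48130 on the quantile-normalised scale. The light and dark intensities did not overlap for 4 of the 5 genes, the exception being AT2G03390. Over all 3409 probes tested, 4.66% had groups that did not overlap, but the members were taken from this contrast and their count supports nothing. The plot of intensities by column shows every value.

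**Figure D1:**
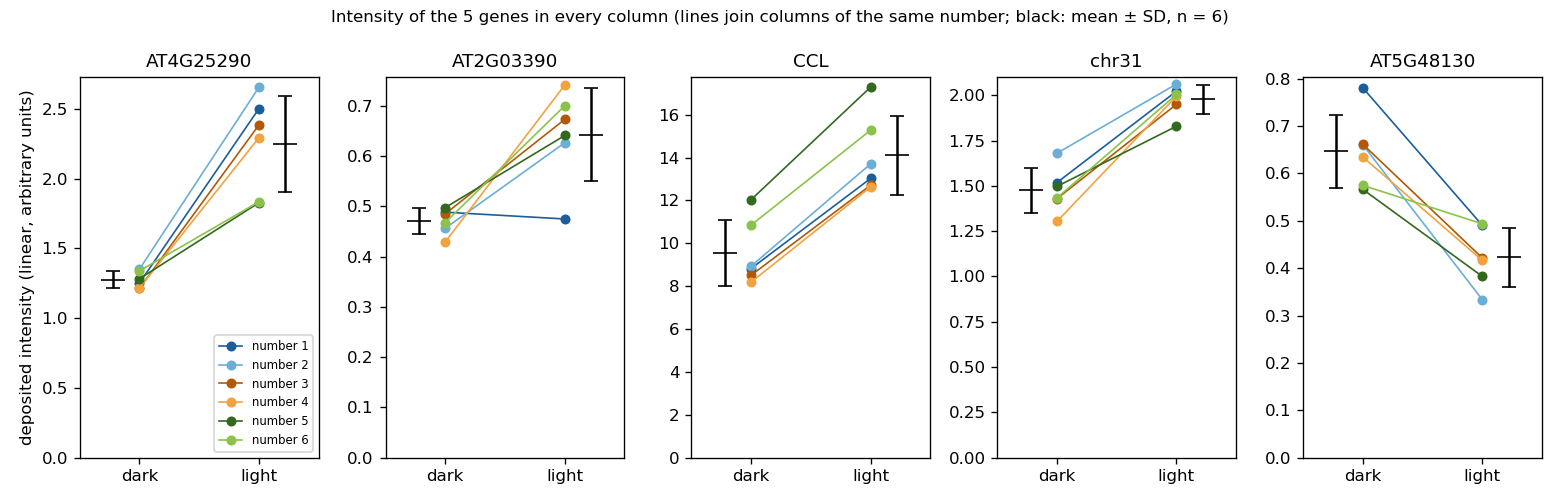
Deposited intensity (linear, arbitrary units, axis from 0) of each gene in the 6 dark and the 6 light columns, with lines joining columns of the same number and black bars for the mean ± SD (n = 6). AT4G25290 is tightly grouped in dark, and its light columns 5 and 6 (both 1.83) lie below the other 4, while CCL columns 5 and 6 are the highest in both groups.

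AT4G25290 had dark intensities with a lowest value of 1.21, a median of 1.27 and a highest of 1.35. In light its lowest intensity was 1.83, the median 2.34 and the highest 2.66. Every light column was thus above every dark column. The mean was 1.28 ± 0.0596 in dark and 2.25 ± 0.346 in light (SD, n = 6), a ratio of means of 1.76 and a normalised log2 difference of 0.82 (SE 0.0936). This SE, like those of the other genes below, is the moderated one of a fit that treats the columns as independent. It ignores the pairing by number.

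The light columns of AT4G25290 were not alike. By number, the light intensity was 2.0 times the dark one in number 1, 1.97 in number 2, 1.97 in number 3 and 1.89 in number 4, but 1.43 in number 5 and 1.37 in number 6. Numbers 1 to 4 thus came close to a doubling, and numbers 5 and 6 stayed clearly below it. As deposited, the dark intensities, at 1.28 in number 5 and 1.34 in number 6, lay within the range of the other dark columns. Their light intensities lay below the other light columns. The coefficient of variation was accordingly 4.68% in dark and 15.4% in light. After quantile normalisation, dark numbers 5 and 6 (log2 0.41 and 0.45) lay above the other dark columns (0.21 to 0.33). The smaller normalised difference thus came with both higher dark and lower light values. The labels do not say what consecutive numbers share, and whether a batch of material or of hybridisation moved with this gene was not tested.

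CCL encodes a small protein named CCR-like and belongs to the short-lived Arabidopsis transcripts whose stability is under control of the clock. Its dark intensities had a lowest value of 8.19, a median of 8.88 and a highest of 12.0. Its light intensities had a lowest value of 12.6, a median of 13.4 and a highest of 17.3. The groups did not overlap, although the highest dark and the lowest light column were close. The mean was 9.56 ± 1.53 in dark and 14.1 ± 1.84 in light (SD, n = 6).

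Columns 5 and 6 were the highest of their group for CCL in dark (12.0 and 10.8) and in light (17.3 and 15.3). Set within numbers, the ratio of light to dark was much steadier than the intensities themselves, from 1.41 in number 6 to 1.54 in number 4. The normalised log2 differences of the 6 numbers had an SD of 0.0621, the smallest of the 5 genes, where the next smallest was 0.129 for chr31 and the largest 0.281 for AT4G25290. The size of the CCL difference depended on the scale: log2 0.45 (SE 0.0842) after quantile normalisation, 0.57 as deposited and 0.62 with columns centred on their median. The direction was the same on all of these scales.

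AT2G03390 had dark intensities with a lowest value of 0.429, a median of 0.476 and a highest of 0.497. In light the lowest was 0.475, the median 0.657 and the highest 0.741. The groups overlapped through light column 1, which lay below 3 of the 6 dark columns, among them its own partner at 0.488. The other light columns, from 0.626 upward, were all above the dark ones. The mean was 0.471 ± 0.0252 in dark and 0.643 ± 0.0921 in light (SD, n = 6; normalised log2 difference 0.48, SE 0.0998).

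Number 1 is where the scale mattered for AT2G03390. As deposited, the light to dark ratio of number 1 was 0.972, a slightly lower value in light, against ratios of 1.29 to 1.73 in the other numbers. After quantile normalisation the log2 difference of number 1 was 0.10, a slightly higher value in light. The gene was thus higher in light in 5 of 6 numbers as deposited and in 6 of 6 after normalisation.

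chr31, also known as CLASSY3, is one of the SNF2-type remodellers that help RNA polymerase IV to reach its targets in RNA-directed DNA methylation. Its dark intensities had a lowest value of 1.304, a median of 1.47 and a highest of 1.68. In light the lowest was 1.83, the median 2.0 and the highest 2.06. The groups were apart, and the light columns lay closer together than the dark ones, with coefficients of variation of 4.11% and 8.44%. The mean was 1.48 ± 0.125 in dark and 1.98 ± 0.0812 in light (SD, n = 6; normalised log2 difference 0.43, SE 0.0610). The spread within groups was low for an array probe: 1.33% of 2554 probes without zeros and above the lower quartile of intensity had a smaller within-group SD than its 0.0838 log2. Genes called by a test tend to have low spread, so this value is no independent finding.

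AT5G48130 was the gene with lower values in light. Its dark intensities had a lowest value of 0.567, a median of 0.648 and a highest of 0.781. Its light intensities had a lowest value of 0.334, a median of 0.419 and a highest of 0.494. The groups did not overlap, and the nearest columns were dark column 5 and light column 6. The mean was 0.647 ± 0.0777 in dark and 0.423 ± 0.0620 in light (SD, n = 6; normalised log2 difference -0.58, SE 0.103).

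Within numbers, the ratio of light to dark for AT5G48130 ran from 0.505 in number 2 to 0.859 in number 6. All 6 numbers were lower in light, with number 6 the least so. The remaining numbers had ratios between 0.628 and 0.675. Unlike in AT4G25290, the values that stood apart did not come in consecutive numbers. Number 1, the partner of number 2, had 0.628, and number 5, the partner of number 6, had 0.675.

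**Figure D2:**
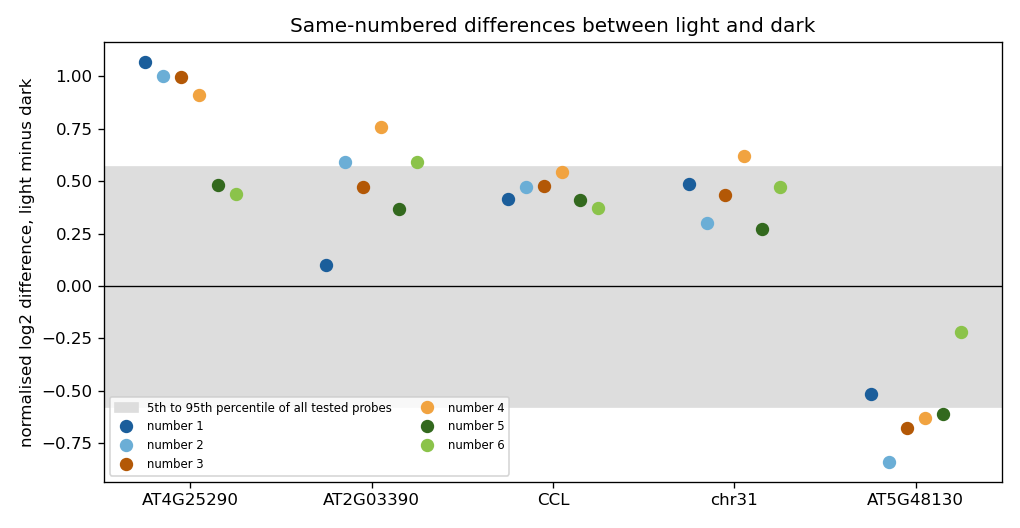
Normalised log2 difference of light minus dark for each of the 6 numbers (points) and each gene, with the grey band from the 5th to the 95th percentile of the mean difference over all 3409 tested probes (-0.58 to 0.57). AT4G25290 splits into numbers 1 to 4, from 0.91 to 1.07, and numbers 5 and 6, at 0.48 and 0.44, whereas the CCL points lie within 0.37 and 0.54.

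All 5 genes moved in one direction in 6 of 6 numbers on the normalised scale, as did 21.9% of all probes tested, a count that the choice of members largely fixes. In the fit over all probes (limma, Benjamini-Hochberg adjusted p under 0.05), 197 of 3409 probes differed between light and dark, 5.78%, with 89 higher and 108 lower in light. The split between directions depended on the scaling: 62 were higher and 117 lower as deposited, whereas centring each column on its median gave 110 higher and 98 lower. Blocking on the replicate number raised the count to 448, or 13.1%, whereas tying consecutive numbers by a random block lowered it to 42 and averaging them to 0 (limma, 335 at an unadjusted p under 0.05). The 5 genes are among the 197 by choice, and nothing is read from that. The median absolute log2 difference over all tested probes was 0.17.

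Consecutive numbers (1 with 2, 3 with 4, 5 with 6) are set apart here because columns of such numbers deviated together over the 2554 probes without zeros and above the lower quartile, with a mean correlation of 0.30. For AT4G25290 the normalised log2 difference was 1.03 in numbers 1 and 2, 0.96 in numbers 3 and 4 and 0.46 in numbers 5 and 6. The SD of these 3 means was 0.311, against an SD of 0.0473 between the numbers of a set. Its differences were therefore almost the same within a set and unequal between sets.

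The other genes did not show that split to the same degree. For AT2G03390 the SD of the 3 set means was 0.134 and the SD within sets 0.249. For chr31 these values were 0.0833 and 0.136, and for AT5G48130 they were 0.145 and 0.209. In these genes the SD within sets was the larger. For CCL both were small, 0.0611 between and 0.0382 within sets, beside medians of 0.156 and 0.163 over the same 2554 probes. A set mean averages its numbers and so varies less than a single number does. The SD between sets and the SD within sets are therefore not on equal terms, for the genes or for all probes.

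**Figure D3:**
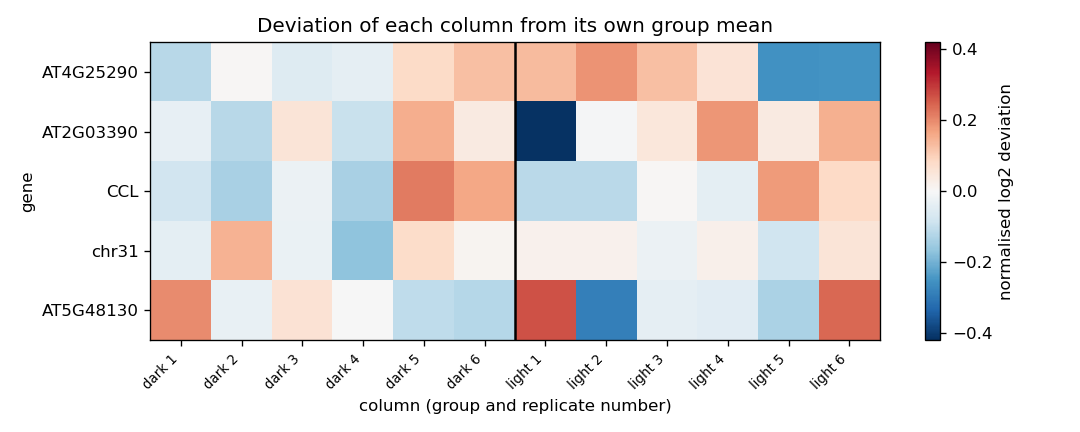
Colour gives the normalised log2 deviation of each of the 12 columns (x axis, group and number) from the mean of its own group for each gene (y axis), so the light-dark difference itself is removed. CCL is above its group mean in columns 5 and 6 of both groups, AT4G25290 is above it there in dark and below it in light, and light column 1 of AT2G03390 stands at -0.41.

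With the group means removed, same-numbered dark and light columns of CCL deviated together (Pearson r = 0.93 over 6 numbers), whereas those of AT4G25290 deviated in opposite directions (r = -0.84). For AT5G48130, AT2G03390 and chr31 the same measure was 0.35, 0.11 and -0.26. These values are descriptions with no p, since same-numbered and consecutive columns are not known to be independent. Over 2553 probes for which this measure could be computed its median was 0.55, with quartiles of 0.16 and 0.82. CCL thus lay above the upper quartile, and AT4G25290, AT2G03390 and chr31 lay below the lower one.

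The genes did not form one pattern beyond the light-dark difference. Over the 12 columns with group means removed, the correlation between 2 of the genes ran from -0.38 for AT4G25290 and AT5G48130 to 0.57 for AT2G03390 and CCL. The other pairs lay between -0.37 and 0.25. Over the 6 same-numbered differences the correlation ran from -0.66 for CCL and AT5G48130 to 0.61 for AT4G25290 and CCL. For AT4G25290 and CCL the deviations had given -0.25, so the measure mattered. The genes were read from the same columns, and columns may share plant material, so these values describe the columns only.

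Over the 12 columns, the probes with 1 gene name whose normalised values were most like a member's were often the same ones. AT2G46300 came first for AT4G25290 (Pearson r = 0.96) and for chr31 (r = 0.93), and AT4G27390 was second for both (r = 0.90 and 0.91). AT4G13220 came first for CCL (r = 0.94) and for AT2G03390 (r = 0.86). For AT5G48130 the nearest were AT5G47030 (r = 0.88), Z-ISO, the zeta-carotene isomerase (r = 0.82), and AT5G35100 (r = 0.82). The light-dark difference enters all of these correlations.

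With the group means removed, other genes came first. They were AT5G04600 for AT4G25290 (r = 0.81), AT3G01060 for AT2G03390 (r = 0.84), AT1G19490 for CCL (r = 0.91), AT2G31920 for chr31 (r = 0.79) and AT5G47890 for AT5G48130 (r = 0.80). AT1G19490 had the opposite light-dark difference to CCL, at log2 -0.44. Likeness in the spread between columns and likeness in the light-dark difference thus picked out different genes.

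Few genes of the surrounding pathways could be read. The 7 lists covered photolyases and cryptochromes, DNA repair, the clock and its outputs, light signalling, the NPH3 family, SNF2 remodellers with RNA-directed DNA methylation, and uvr-motif proteins with the plastid Clp protease. Apart from the members they hold 143 genes, of which 1 was measured by a probe that names 1 gene. That gene was AT1G68660, listed as the Clp adaptor ClpS1, which delivers substrates to the chaperone of the protease. Its intensity averaged 0.703 ± 0.0757 in the dark columns and 0.771 ± 0.132 in the light columns (SD, n = 6), and the groups overlapped. It did not pass the threshold, with a normalised log2 difference of 0.18 and an adjusted p of 0.429 in the limma fit over all probes. The other 6 lists had 0 measured genes besides the members, so the lists say little of light, clock or repair genes in general. Outside the lists, probes with 1 gene name also held the repair-linked names DRT100, DRT101, APTX, DME and AT4G12740, picked out after their values were known. Their log2 differences lay between -0.17 (APTX) and 0.53 (AT4G12740), and none passed the threshold, the smallest limma adjusted p being 0.0927 for AT4G12740.

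Green tissue was checked with 15 photosynthesis genes, of which 6 were measured: LHB1B2, PSAN, PSBW, PSBY, SBPASE and PRK. None was listed at 0 in any column, with group means from 0.422 for PRK to 23.9 for PSBW. None passed the threshold over all probes, with a median log2 difference of 0.005, where that of all tested probes was 0.002. PSBW, a small subunit of photosystem II, was the nearest to it, with a normalised log2 difference of 0.24. Its adjusted p was 0.0543 by limma, or 0.0409 once the replicate number was blocked. On other scales its difference was larger and past the threshold, at 0.44 as deposited (limma adjusted p = 0.0113) and 0.49 centred on the median (0.0121). With consecutive numbers in a random block or averaged it did not pass (limma adjusted p = 0.175 and 0.535). Its light and dark intensities did not overlap.

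**Figure D4:**
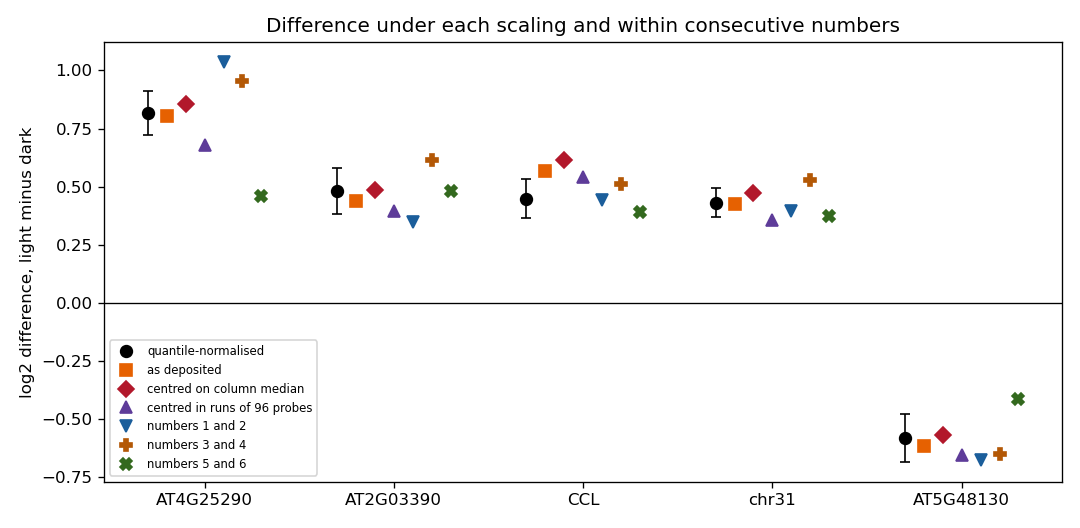
Log2 difference of light minus dark for each gene under 4 scalings (black circle with SE: quantile-normalised, the main setting) and within each set of consecutive numbers. All points keep the sign of the main setting, AT4G25290 ranges from 0.46 in numbers 5 and 6 to 1.03 in numbers 1 and 2, and CCL is larger as deposited (0.57) and centred on the median (0.62) than quantile-normalised (0.45).

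Neighbouring probe numbers were set beside the members, since probe numbers may follow the layout of the array. The run of 96 probes that holds AT4G25290 had a median log2 difference of 0.02, that of AT2G03390 0.06, that of CCL -0.07 and that of chr31 and AT5G48130, which share a run, 0.06. All were small beside the members' own differences. With each column centred within its run, the differences were 0.68 for AT4G25290, 0.39 for AT2G03390, 0.54 for CCL, 0.35 for chr31 and -0.66 for AT5G48130. For every member this shift from the main setting was larger than the median difference of its run. Centring takes away the median of each column in the run, which is not the same as the median difference.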

How the data were processed

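The data are linear intensity values deposited by the authors as 1 table. How it was made is not stated in the labels used here. No value was negative, each column held 129 to 148 exact zeros, and totals ran from 3466 to 3664. The highest value, deposited as 99.999999999, was shared by 11 of the 12 columns. Whether columns were scaled to it is not stated. None of the 5 members was at 0 in any column, and all 5 had a mean above the lower quartile of all probes (0.330). Gene names came from the annotation of the platform and may be outdated. RefSeq (assembly TAIR10.1) served for names only, with 690 of 692 matched, because no build is named for the array.

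Columns were quantile-normalised with zeros kept at 0 and transformed as log2(value + 2.53e-05), the lowest positive value. After dropping 30 probes that were 0 throughout, 3409 were fitted with limma 3.58.1 in R 4.3.3 (lmFit, eBayes, two-sided, Benjamini-Hochberg, threshold 0.05). The fit was tested on simulated data in which same-numbered columns shared an effect but consecutive numbers did not. Its behaviour where consecutive numbers deviate together, as they do here, was not tested. Means ± SD are deposited intensities. Python 3.11.15 with numpy 2.4.6, pandas 2.3.3 and matplotlib 3.10.9 made the tables and figures. The number of arrays limits the precision.

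Members and lists were chosen with earlier results of these data known. The genes named are the 5 members, measured list genes (up to 6 a list, by p), and the probes most like a member by Pearson correlation among probes with 1 gene name and a mean above the lower quartile. Deviations of same-numbered columns from their group means correlated by 0.66 to 0.79 over 2554 probes, in each of the 6 numbers, so by the values the replicate numbers pair the columns. Alternatives changed the scaling, the offset, the filter, the block, the treatment of consecutive numbers, the moderation and the columns used. Promoter and protein sequences were not used here.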

Additional observations from a re-analysis of the deposited data

Results flagged for a closer look

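Each group of 6 intensities was looked at for 1 column far from the other 5, in the members and in the measured list genes. None of the 10 groups of the members held such a column. Among all 24 groups there was 1: LHB1B2, an antenna protein of photosystem II, had an intensity of 14.8 in light column 5, against 10.4 to 12.0 in the other light columns. By its nominal rate, such a rule picks out about 1 group in 20 by chance, a rate not measured here.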

How the results depend on the processing

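No member changed direction under any of the 24 alternatives run for it. The filter on intensity, the moderation, the replicate block, the random block and the averaging of consecutive numbers leave a member's difference unchanged by construction. Members were also chosen for this difference, so a kept sign is no separate support. The differences of AT2G03390, chr31 and AT5G48130 moved by less than the SD of their 6 numbers under all alternatives. That of AT4G25290 moved further in numbers 5 and 6 alone (log2 0.46), and that of CCL did so as deposited (0.57), centred on the median (0.62), within runs of 96 probes (0.54) and in numbers 3 and 4 alone (0.51). Leaving out 1 column gave 0.77 to 0.86 for AT4G25290, 0.45 to 0.56 for AT2G03390, 0.40 to 0.48 for CCL, 0.40 to 0.46 for chr31 and -0.63 to -0.52 for AT5G48130.

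The count of 197 called probes became 448 with the replicate block. It was 42 where a random block tied consecutive numbers together, and 0 where such numbers were averaged (limma, 335 at an unadjusted p under 0.05), where each group has 3 columns. As deposited it was 179, with 62 higher and 117 lower, and with columns centred on the median 208, with 110 higher and 98 lower. Leaving out 1 column gave 106 to 177, the count falling by over 1.5 times without dark column 2 (127) or 4 (121) or light column 1 (114), 2 (121), 3 (112), 4 (106) or 6 (122). The cause was not tested. Of the 7 measured list genes, 0 passed (limma, 1 at an unadjusted p under 0.05). Under 6 alternatives 1 did, PSBW each time: as deposited, centred on the median, above the lower quartile, with the replicate block, and without dark column 6 or light column 3, so that leaving out a column gave 0 to 1. The replicate block changed no other call among the genes named from the lists.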

Other observations

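The 5 genes were not those with the largest differences by size. Among the 685 tested probes with 1 gene name, 25 had a larger positive log2 difference than AT4G25290. None of these 25 passed the threshold (limma), 24 had a mean intensity at or below the lower quartile, and 22 were listed at 0 in at least 1 column. Their SE ran from 0.345 to 3.19 log2, against 0.0936 for AT4G25290. Next to it in that order stood AT5G38360 above, at 0.85, and AT4G22490 below, at 0.77. For AT5G48130, 36 probes had a larger negative difference, of which 5 passed the threshold and 29 were at or below the lower quartile.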
